A study of Caenorhabditis elegans with 2 samples.

Results

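Chromatin immunoprecipitation and sequencing of NHR-111 in *Caenorhabditis elegans* gave 30000 pooled intervals, and 316 of the 5000 with the highest signal had their summit at the start of a non-coding RNA gene outside the classical small RNA classes. These 316 peaks were chosen by pooled signal and by position. The summit, the single base that the authors' files mark as the top of an interval, lay within 250 bp of the start of a gene that the Ensembl annotation calls ncRNA, lincRNA or antisense_RNA. It also lay more than 250 bp from every tRNA, snoRNA, snRNA, rRNA and miRNA start, and peaks at the 3 named RNA genes rpr-1, mrpr-1 and srpr-2.1 were left out. By the same reach, 335 of the 5000 intervals lay at tRNA genes and 95 at snoRNA genes. The 316 peaks were a mixed group. Most were of modest signal and were placed much as weak intervals at the same kind of gene, while a small number were strong in both replicates. At 6 members, whose pooled ranks ran from 38 to 3422, the genes share a common sequence layout.

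NHR-111 belongs to the nuclear hormone receptors, transcription factors that contact DNA through a pair of zinc fingers and that are unusually numerous in this nematode. Worm genes annotated simply as ncRNA are mostly short transcripts known only by a sequence name, and lincRNA and antisense RNA genes are longer and lie between genes or opposite to a coding gene. RNA polymerase III makes several kinds of short RNA. At tRNA genes it is recruited by an A box and a B box inside the gene, and at other genes, such as those for U6 and RNase P RNA, by elements upstream that can include a TATA word.

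The series held 1 group of 2 samples, labelled as biological replicates. Both were whole animals of mixed sex at the L4 larval stage, 48 h old, of strain OP569, synchronised by starving hatched L1 larvae after bleaching. The strain carried unc-119(tm4063) and the integrated transgene wgIs569, which holds nhr-111::TY1::EGFP::3xFLAG together with unc-119(+), so every animal had the tagged receptor beside the rescue gene, and the precipitation used an antibody against GFP. No untagged strain, other factor or control library was analysed here, and peaks at these genes cannot be told apart from sites that are recovered whatever protein is tagged. The interval lists give no read totals, which leaves the depth of both libraries unknown. Coordinates refer to ce11 and count from 1.

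Sequences of 4 of the strongest members are shown first, each as the 50 bp to either side of the summit. They were picked with the B box word GTTCNANNC in view, which tRNA genes also carry, and 3 of the 4 hold it. These are not typical, since only 3 of the 15 strongest members hold the word. Of all members 4.43% hold it, against 3.51% of the weak intervals at ranks 10001 to 30000 that met the position rule. The word is in capitals, all are written 5′ to 3′ on the strand of the non-coding gene, and the letters are those of the RefSeq copy of the assembly. F54D5.22 is at chrII:11545450-11545550, C14F11.14 at chrX:6207819-6207919, K10H10.11 at chrII:14497004-14497104 and T28D6.13 at chrIII:11371408-11371508, all on the plus strand.
F54D5.22: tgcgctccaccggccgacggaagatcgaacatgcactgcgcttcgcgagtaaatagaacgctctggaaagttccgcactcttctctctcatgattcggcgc
C14F11.14: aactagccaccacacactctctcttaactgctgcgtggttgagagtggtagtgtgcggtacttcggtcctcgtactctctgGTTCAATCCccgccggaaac
K10H10.11: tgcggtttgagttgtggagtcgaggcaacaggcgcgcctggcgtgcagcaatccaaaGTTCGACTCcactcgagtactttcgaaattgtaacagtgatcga
T28D6.13: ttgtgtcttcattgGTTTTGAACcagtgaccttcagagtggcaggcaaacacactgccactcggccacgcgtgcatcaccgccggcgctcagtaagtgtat
F54D5.22, the strongest of the 4, had no B box word in its window. In T28D6.13 the word read on the strand opposite to the gene, so its reverse complement is what is printed. On that same opposite strand this window also holds the A box word TGGCNNAGT and the nuclear receptor word AGGTCA, neither in capitals.

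The second set of sequences shows the layout shared by 6 members. Each line runs from 60 bases before the first of 3 words, TCCGG, to 10 bases after the last, CTTGAC, with GGGTTA between them, and all 6 also had TATATA upstream of the first word. The 4 words are in capitals. The loci are W01D2.7 at chrII:14804430-14804558 (plus strand), F08G2.13 at chrII:13834449-13834571 (minus strand), W01D2.9 at chrII:14804739-14804873 (plus strand), W01D2.8 at chrII:14801350-14801474 (minus strand), CD4.18 at chrV:5587233-5587421 (plus strand) and C18C4.17 at chrV:5576168-5576373 (plus strand).
W01D2.7: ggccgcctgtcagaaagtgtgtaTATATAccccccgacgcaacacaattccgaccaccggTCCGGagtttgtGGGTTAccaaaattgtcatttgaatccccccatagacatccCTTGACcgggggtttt
F08G2.13: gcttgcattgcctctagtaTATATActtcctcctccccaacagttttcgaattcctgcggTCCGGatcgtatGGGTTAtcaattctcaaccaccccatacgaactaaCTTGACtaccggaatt
W01D2.9: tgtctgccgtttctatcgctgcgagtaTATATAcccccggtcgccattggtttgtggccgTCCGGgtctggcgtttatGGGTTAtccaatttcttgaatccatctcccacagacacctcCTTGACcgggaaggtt
W01D2.8: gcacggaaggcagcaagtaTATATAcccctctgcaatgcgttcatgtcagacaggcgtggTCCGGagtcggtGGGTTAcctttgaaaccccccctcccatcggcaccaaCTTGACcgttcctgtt
CD4.18: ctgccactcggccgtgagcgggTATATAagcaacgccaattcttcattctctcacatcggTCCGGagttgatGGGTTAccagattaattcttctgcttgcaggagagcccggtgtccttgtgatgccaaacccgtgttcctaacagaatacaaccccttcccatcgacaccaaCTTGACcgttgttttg
C18C4.17: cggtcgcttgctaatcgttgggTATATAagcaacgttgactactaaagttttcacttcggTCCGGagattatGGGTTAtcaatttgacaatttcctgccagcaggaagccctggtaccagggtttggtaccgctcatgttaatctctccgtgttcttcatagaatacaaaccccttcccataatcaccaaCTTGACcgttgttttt
The words were picked after the sequences of strong members had been seen, so the layout is a description of these loci and not a tested motif.

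The strongest members were found in both replicates, which their choice by a pooled signal made from both favours. Signal here is the value deposited for each interval, on a scale not stated in the files or labels, and replicate values are those of the nearest summit within 200 bp. Distances to protein-coding starts are counted from the pooled summit. At F54D5.22, a 150 bp gene opposite to an intron of the dehydrogenase gene dhgd-1 and 201 bp upstream of the start of dnj-13, a gene for a DnaJ-type cochaperone, replicate 1 gave a signal of 98.3 and replicate 2 one of 126 (mean 112 ± 19.7, SD, n = 2), with 228 in the pooled list, at rank 24. At W01D2.7, the strongest gene of the 6 with the shared layout, it was 82.4 and 123 (103 ± 28.5). At C14F11.14, whose summit lay 34 bp inside the gene, it was 65.6 and 116 (90.8 ± 35.6). K10H10.11 had 74.2 and 95.9 (85.0 ± 15.4) with a summit 37 bp ahead of the gene, and T28D6.13, opposite to an intron of the alpha tubulin gene tba-7, had 84.2 and 74.1 (79.1 ± 7.14) with its summit 3 bp inside the gene. All of these ranked among the 250 strongest intervals of each replicate.

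The remaining 10 of the 15 strongest members had pooled signals down to 122, at rank 252. The highest of all was at Y65B4BR.10, 266 bp upstream of the ubiquitin ligase gene wwp-1, where replicate 1 had 96.7 against 185 in replicate 2 (141 ± 62.4, SD, n = 2), the widest gap in absolute terms among the 15. Its interval was 142 bp wide, against 404 bp for the 315 other members. A second member at this gene overlapped it, at rank 619 with 54.0 and 42.7. The summit of that second member lay 64 bp upstream of wwp-1. Close replicate values were seen at C17G10.14, with 62.6 and 63.1, at F26F4.14, with 59.9 and 63.1, and at F16A11.7, in an intron of the phosphatase regulator gene ppfr-1, with 79.9 and 73.2. C07A12.19, 40 bp upstream of pdi-2, a gene for a protein disulfide isomerase, had 41.6 and 84.9. W06B11.7, 311 bp upstream of the Pumilio family gene puf-9, had 60.9 and 72.6, and F56F3.11, 262 bp upstream of the small ribosomal subunit gene rps-1, had 58.8 and 80.2. The others were F08G2.13 with 80.3 and 62.7, T13H2.7 with 60.6 and 52.6, and T24B8.22 with 50.4 and 75. Replicate 2 was higher at 11 of the 15 and replicate 1 at 4. Of the 15, 14 had the summit within 100 bp of the non-coding start, 11 lay outside protein-coding genes, 4 lay in introns and 0 in coding exons, and 9 had a protein-coding start within 500 bp.

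**Figure D1:**
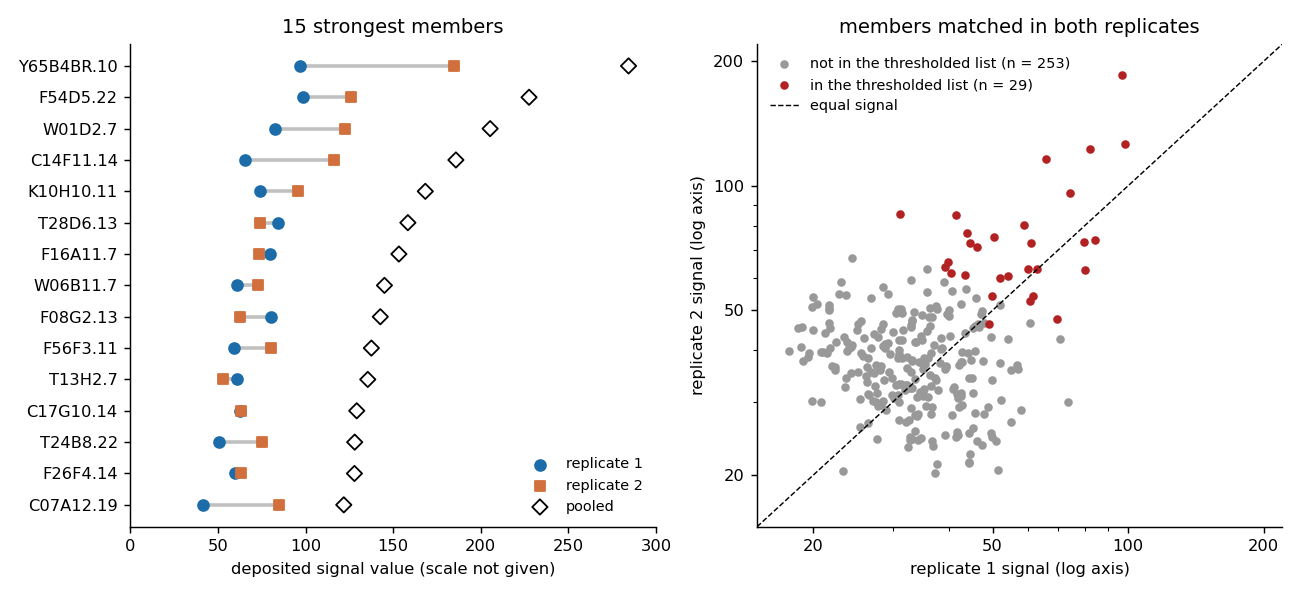
Left, deposited signal of the 15 strongest members in replicate 1 (circles), replicate 2 (squares) and the pooled list (diamonds), with the gap between replicates as a grey line. Right, replicate 2 against replicate 1 signal on log axes for the 282 members matched in both. The 29 members of the thresholded list are in red, above and to the right of most others. Among members this list followed pooled rank, and the pooled signal was made from both replicates.

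Most members were weaker than these. Pooled signal had a median of 70.4 and ran from 59.2 to 284, beside a median of 69.4 for all 5000 intervals, and the deposited −log10 q-value had a median of 0.508 against 0.486. The thresholded list, made by the authors with the irreproducible discovery rate, is meant to keep peaks of steady rank in the replicates. It held 29 of the 316 members (9.18%, exact 95% interval 6.23 to 12.9%), against 10% of all 5000. Among members it followed pooled rank exactly, with all down to rank 478 inside and all from rank 552 outside. C18A11.13 was inside with replicate ranks of 5556 and 109, and F10E9.23 outside with 512 and 874. For members, a place in this list therefore restates high pooled signal and is not read as steadiness between replicates. Whether the same holds for other intervals was not tested. Peaks at tRNA genes were in that list in 44.8% of cases and peaks at snoRNA genes in 61.1%, while the 4202 other intervals with no small RNA start near were in it in 5.88%. The rank threshold that chose the members cut through close values. The 3 members just inside it, the last of them at F02E8.10 and C34F11.16, had pooled signals of 59.3, 59.2 and 59.2, and the 3 intervals just outside, at F43E12.2, linc-23 and T01B10.13, had 59.1, 59.1 and 58.9.

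In both replicates, 105 members (33.2%, exact 95% interval 28.1 to 38.7%) were matched within 200 bp by one of the 5000 strongest summits, against 30.7% of all 5000 pooled intervals. A further 82 members had a match among the strongest of replicate 1 alone, 97 among those of replicate 2 alone and 32 in neither. In the full replicate lists 282 (89.2%) were matched in both, and signal in replicate 2 divided by that in replicate 1 had a median of 1.12 there (quartiles 0.875 and 1.48), against 1.13 for all 5000. The median SD between replicates was 20.7% of the mean. The members went into these shares through a pooled list made from the same replicates, so the shares are descriptions.

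Choosing peaks on a single replicate and reading them in the other avoids that dependence. By the same position rule, 306 of the 5000 strongest intervals of replicate 1 lay at these genes, and 109 of them (35.6%, exact 95% interval 30.3 to 41.3%) had a summit among the 5000 strongest of replicate 2, against 30.7% of all 5000. In the other direction, 114 of 318 (35.8%, 30.6 to 41.4%) were found in replicate 1, against 30.6% of all. Intervals with no small RNA start near and outside the group were found in 25.7% of cases (24.4 to 27.1%) and 25.5% (24.2 to 26.8%), and peaks at tRNA genes in 79.3% and 76.8%. The interval of the group held the share of all 5000 in both directions. In the second it did so barely, with a lower bound of 30.57% against a share of 30.58%. At this number of peaks the group was therefore not told apart from the list as a whole, which includes the tRNA gene peaks. In both directions its interval lay wholly above that of intervals with no small RNA start near and outside the group. Those intervals differ from the members in other ways too. In the pooled list, 39.1% of them lay in coding exons against 7.59% of members, and their median rank was 2689.5 against 2349.5. The part of these differences was not tested. Both directions largely match the same summits and are not separate measurements. The intervals cover counting error only, neighbouring peaks are not independent, and a single control alignment served for calling the intervals of both replicates.

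The replicates differed most at a few members. Among those matched in both full lists, the ratio of replicate 2 to replicate 1 was lowest at ZK1290.20, at 51.4 in replicate 1 against 20.6 in replicate 2, and at M117.12, with 73.7 and 29.95. It was highest at K11D9.7, opposite to an intron of the kinesin gene klp-7, with 24.4 and 67.1, and at C18A11.13, with 31.2 and 85.2. M117.12 ranked 121 in replicate 1 and 9079 in replicate 2, and K11D9.7 ranked 13490 and 311. The low ratio at ZK1290.20 depends on which summit is matched. That gene has a second member, at pooled rank 622, with no match in replicate 1 and 63.9 at rank 365 in replicate 2, so replicate 2 was strong there too. C18A11.13, at pooled rank 284, was in the thresholded list, and the other 3 were not. The next lowest ratios, from 0.473 to 0.484, were at R12B2.9, R09A8.6 and H30A04.2, and the next highest, from 2.54 to 2.69, at C07H6.15, C02B4.9 and C09B8.14.

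How the group relates to signal was examined along the rank of the pooled list. The share of intervals that met the position rule was 5.8% among ranks 1 to 500, 6.6% among ranks 501 to 1000, 7.27% among ranks 1001 to 2500 and 5.8% among ranks 2501 to 5000. It was 5.98% among ranks 5001 to 10000 and 4.85% (exact 95% interval 4.55 to 5.15%) among ranks 10001 to 30000, against 6.32% (5.66 to 7.03%) of the 5000 strongest. Of the bases of the genome, 3.20% met the rule. The share was therefore above that of the genome throughout the list, weakest intervals included. It rose by less than 2 percentage points from the weakest to the 5000 strongest. Intervals near a small RNA start could not be members but were counted in each total. Among the 5000 strongest, those at tRNA and snoRNA genes had median pooled ranks of 593 and 308, which lowers the share at the top ranks. The share among eligible intervals alone was not computed by rank. The replicate lists gave similar values, with 6.12% of the 5000 strongest in replicate 1 and 6.36% in replicate 2 against 4.68% and 4.65% of ranks 10001 to 30000.

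**Figure D2:**
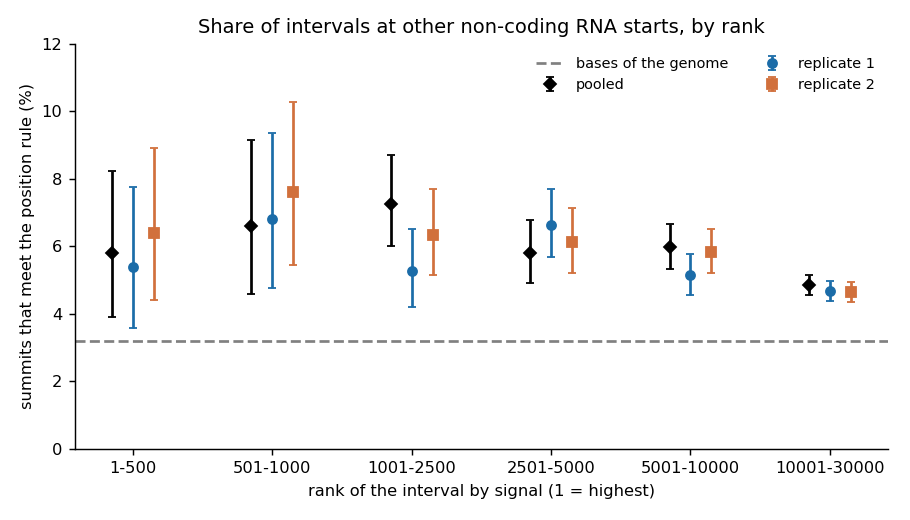
Percent of intervals whose summit met the position rule, by rank of signal, in the pooled list and in each replicate, with exact 95% binomial intervals as bars and the share of genome bases (3.20%) as a dashed line. All 18 points lie above the line, and those of the 5000 strongest intervals lie between 5.27 and 7.6%.

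Summits lay around the annotated starts. The median member summit was 17 bp inside the gene, but 5 bp upstream (−5) with members chosen on replicate 1 alone, so the side of the start was not stable. Of the 316 summits, 185 (58.5%, exact 95% interval 52.9 to 64.0%) lay within 100 bp of the start and 107 within 50 bp. Among the 62 members of ranks 1 to 1000 the share within 100 bp was 66.1% (53.0 to 77.7%). Among the 969 intervals of ranks 10001 to 30000 that met the same rule it was 52.8% (49.6 to 56.0%), with a median 3 bp upstream. Peaks at tRNA genes lay within 100 bp in 85.1% of cases and peaks at snoRNA genes in 71.6%. The 2 bins just inside the gene, from the start to 50 bp and from 50 to 100 bp, held 19.6 and 17.7% of the members against 14.7 and 11.9% of the weak intervals. The outermost bins also held more, at 7.91 against 6.30% upstream and 7.28 against 7.12% downstream. Every other bin held fewer, such as 6.96 against 11.5% from 100 to 50 bp upstream and 5.70 against 8.88% from 100 to 150 bp downstream.

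**Figure D3:**
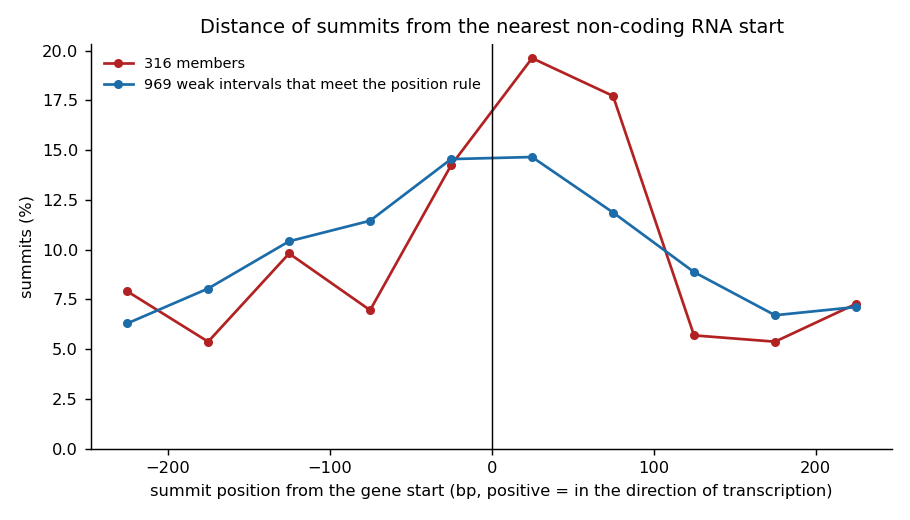
Percent of summits in 50 bp bins by position from the nearest start of the 3 biotypes (positive values lie in the direction of transcription), for the 316 members and for 969 intervals of ranks 10001 to 30000 that met the same position rule. The members have their highest bin, 19.6%, just inside the gene; the weak intervals peak at the same place, at 14.7%.

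Position relative to protein-coding genes was close to that of the bases the rule admits. Of the member summits, 141 (44.6%, exact 95% interval 39.1 to 50.3%) lay inside a protein-coding gene, far below the 68.5% of all 5000 intervals, but 47.0% of all genome bases that met the position rule lay inside such a gene and 47.2% of the 969 weak intervals did. Introns held 101 members (32.0%), coding exons 24 (7.59%, against 10.7% of the bases that met the rule), non-coding parts of exons 16, and 175 (55.4%) lay outside. A protein-coding start lay within 250 bp of 36 members (11.4%, 8.11 to 15.4%), against 10.8% of the bases that met the rule. Examples of these 36 are C07A12.19 upstream of pdi-2 and F57B10.17, whose summit lay 29 bp upstream of the trehalase gene tre-1, with a pooled signal of 118. In all of the 141 hosted members the host was of 1 strand, and the non-coding gene lay on the opposite strand in 93 (66.0%, 57.5 to 73.7%), against 69.5% of all genes of the 3 biotypes with their start in such a host.

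By kind of gene, 309 members were nearest to an ncRNA gene, 3 to a lincRNA gene and 4 to an antisense_RNA gene, in 313 distinct genes of median length 146 bp. Counted by gene, 404 of 7764 ncRNA genes (5.20%, exact 95% interval 4.72 to 5.72%), 3 of 194 lincRNA genes (1.55%, 0.320 to 4.45%) and 4 of 100 antisense_RNA genes (4.0%, 1.10 to 9.93%) had a member within 250 bp. Genes that share a neighbourhood share a peak. Chromosome X held 96 members (30.4%) and 31.8% of the genes of these biotypes, against 15.7% of all 5000 intervals.

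Few members have a gene-class symbol. The strongest was rncs-1, a non-coding RNA of the worm known to rise on starvation and to interfere with Dicer, the enzyme that cuts double-stranded RNA. Its summit lay 83 bp inside the gene, with a signal of 35.7 in replicate 1 against 63.0 in replicate 2 (49.3 ± 19.3, SD, n = 2), with a pooled value of 98.5 at rank 558, outside the thresholded list. Of the 14 ncRNA genes with such a symbol, 3 of them left out by the rule, 1 had a member. The lincRNA genes were linc-91, with 45.8 and 28.2, linc-95, with 22.3 and 36.4, and linc-47, with 36.7 and 24.1. The antisense genes included anr-44, with 47.4 and 23.6, which lies opposite to the nuclear hormone receptor gene nhr-66 and had its summit in a coding exon of it. The others of this class were anr-2, with 29.6 and 39.2, anr-36, with 23.4 and 43.0, and F17C11.20, with 35.7 and 44.5. Replicate 1 was the higher in 3 of these 8 genes and replicate 2 in 5, and none was in the thresholded list.

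Short words within 50 bp of the summits were counted on both strands. The word GAGAGA was in 62 member windows (19.6%, exact 95% interval 15.4 to 24.4%), against 10.7% (9.82 to 11.5%) of all 5000 windows, 14.1% (12 to 16.5%) of the 969 weak intervals at the same kind of gene and 8.54% of windows centred 300 bp to either side of the member summits. The interval of the members overlapped that of the weak intervals. GCGCGC was in 17 members (5.38%, against 2.78% of all 5000, 2.68% of the weak intervals and 1.74% of the flanks). TTTTT was in 39.2% (33.8 to 44.9%), against 43.8% of all 5000, 53.4% (50.2 to 56.5%) of the weak intervals and 59.97% of the flanks. TATAAA was in 2.53%, against 5.38%, 4.44% and 8.86%. Median G+C of the member windows was 47.5%, against 45.5% for all 5000 and 43.6% for the weak intervals. What part base composition has in the word shares was not tested. The nuclear receptor word AGGTCA was in 7 member windows (2.22%, against 2.68% of all 5000, 3.41% of the weak intervals and 3.48% of the flanks). It was in 3 of the 29 members of the thresholded list (10.3%), at Y65B4BR.10, T28D6.13 and ZK265.11, and in 4 of the 287 others (1.39%). These counts are small and the split was not tested. CACGTG was in 5 (1.58%, against 3.14% of all 5000 and 1.65% of the weak intervals), and the A box word TGGCNNAGT in 4 (1.27%, against 2.36 and 0.929%). Among these 4, T28D6.13 and Y57G11C.1146 also held the B box word.

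**Figure D4:**
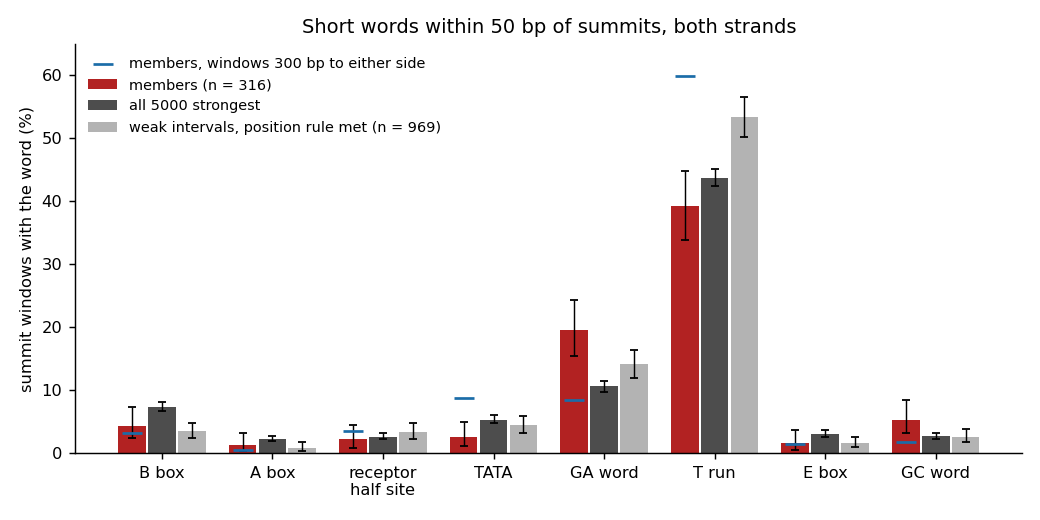
Percent of windows of 50 bp to either side of the summit that hold each word on either strand, for members, all 5000 strongest intervals and weak intervals that met the position rule, with exact 95% binomial intervals; blue dashes give the members' flanking windows. The words are named as in the text, with E box for CACGTG. At the GA word the member interval (15.4 to 24.4%) lies wholly above that of all 5000 (9.82 to 11.5%).

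The B box word was in 14 members (4.43%, 2.44 to 7.32%), against 7.38% of all 5000 and 3.51% of the weak intervals, close to the 3.998% of other intervals with no small RNA start near and far below the 47.8% of tRNA gene peaks. It was in 3 of the 29 members of the thresholded list (10.3%), the genes C14F11.14, K10H10.11 and T28D6.13 shown above, and in 11 of the 287 members outside the thresholded list (3.83%). These counts are small and the split was not tested. The share over all 501 thresholded intervals, of which 150 are tRNA gene peaks, was not computed. The match was GTTCAATCC in C14F11.14, 31 bp from the summit, and GTTCGACTC in K10H10.11, 7 bp from it. The same letters GTTCAATCC lay 7 bp from the summit of ZK816.8, also on chromosome X, at pooled rank 1215 with signals of 44.1 and 39.4. The genes C14F11.14 and ZK816.8 aligned over 108 bases at 90.7% identity in opposite orientation. Among the nearest genes of all members, 15 pairs from 16 genes aligned over at least 50 bases, so near copies within this set were few. Copies outside the set were not counted.

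The 3-word layout was then searched for in the 6 nuclear chromosomes. The word TCCGG, followed by GGGTTA within 4 to 20 bases and then by CTTGAC within 20 to 150 bases, was found at 21 loci, and 14 of these had TATATA in the 60 bases before the first word, from 27 to 35 bases ahead of it. All 14 were annotated as non-coding RNA on the same strand, 12 as ncRNA and the others as the snRNA gene M163.13 and the miRNA gene mir-2214, while 0 of the 7 loci without TATATA were. Of the 14, 9 had a pooled summit among the 5000 strongest within 250 bp of the first word, in 8 distinct intervals, since mir-2214 and B0361.13 share 1. The words were read from strong members, and 6 of the 9 loci carry the member peaks themselves, so nothing is read from this count. Of all genes of the 3 biotypes, 5.10% had a member within 250 bp. A pooled summit of any rank lay at 11 of the 14, and 3 had none.

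Signal varied widely over these 14 loci, which share the words but run from 50 to 136 bp from the first word to the last. After W01D2.7 at rank 38 and F08G2.13 at rank 146 came M163.13, no member because it is an snRNA gene, at rank 185 with 70.3 in replicate 1 and 51.8 in replicate 2. W01D2.9 had 45.8 and 39.8, W01D2.8, inside W01D2.3, had 33.0 and 59.1, CD4.18 had 33.2 and 37.7, and C18C4.17 had 27.3 and 35.3. W01D2.7, W01D2.8 and W01D2.9 lie in 1 cluster on chromosome II. F08G2.13 has a neighbour on the same chromosome, F08G2.12, at chrII:13834881-13835002 on the minus strand. F08G2.12 had no pooled summit within reach although it holds the same words. Replicate 2 alone had a summit there, 207 bp after the first word, with 31.8 at rank 7372.
F08G2.12: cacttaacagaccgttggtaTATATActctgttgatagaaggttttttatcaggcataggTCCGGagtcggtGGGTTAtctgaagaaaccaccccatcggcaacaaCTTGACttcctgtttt
F35E12.11 and CD4.19 on chromosome V had no summit within reach in the pooled list or in either replicate. CD4.19 lies near CD4.18 and is a near copy of it from the first word on. Reads of either could have been placed at the other, which was not tested. Summits of F08G2.13, W01D2.8 and W01D2.9 lay 18, 17 and 35 bp before the first word, and those of C18C4.17, W01D2.7 and CD4.18 lay 38, 75 and 83 bp after it. Replicate summits were at the same base at W01D2.9, and 3, 4 and 15 bp apart at F08G2.13, CD4.18 and W01D2.7. They were 39 bp apart at W01D2.8 and 46 bp apart at C18C4.17, and at both of these genes they lay on different sides of the first word.

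**Figure D5:**
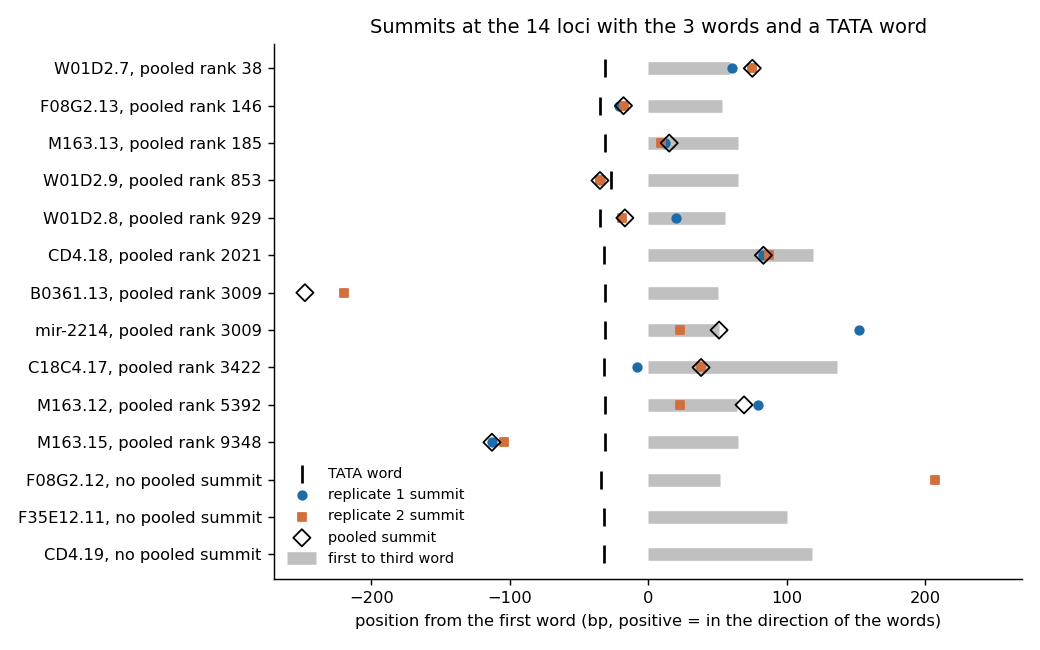
Position of the pooled, replicate 1 and replicate 2 summits relative to the first word at the 14 loci with the 3 words and TATATA, ordered by pooled rank; grey bars run from the first to the last word and ticks mark TATATA. At the 3 loci of highest pooled signal, W01D2.7, F08G2.13 and M163.13, both replicate summits lie within 75 bp of the first word, and the last 3 loci have no pooled summit.

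Some member genes overlap a small RNA gene whose start was out of reach. How often all genes of the 3 biotypes do so was not counted, so the counts here only describe the members. Of the 313 nearest genes, 10 overlapped a small RNA gene, and in 7 of these it lay on the opposite strand. They included 3 genes opposite to a tRNA gene (C18A11.13, C04A2.11 and F29C4.12), with the summit 310, 303 and 269 bp from the tRNA start. Another 3 were opposite to an snRNA gene (F38E11.23, R05D7.8 and a near copy of R05D7.8 on chromosome IV), at 384, 268 and 298 bp, and ZK930.13 was opposite to mir-45, at 291 bp. R05D7.8 and its copy aligned over 204 bases at 97.5% identity, so reads of 1 could have been placed at the other, which was not tested.

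Simple repeats marked a further few members. A run of at least 10 CA units was in the summit window of 4 members (F16A11.7, T13H2.7, K06G5.6 and F09F3.17) of the 11 among all 5000, and a run of at least 10 GA units in 5 members (Y108G3AL.8, C02D4.5, T24A11.5, Y111B2A.32 and T06D10.5) of 11. Among the 969 weak intervals at the same kind of gene, 0 had the CA run and 5 the GA run (0.516%, against 1.58% of the members). F16A11.7 and T13H2.7, both among the 15 strongest, had 70.3 and 68.3% of the window in soft-masked sequence. Over all members 8.23% of windows were more than 50% masked, against 11.8% of all 5000. The repeats were looked for after the strongest windows had been read, and how reads were placed on repeats is not stated in the files or labels.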

How the data were processed

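ChIP-seq intervals came from 2 biological replicates of 1 group, assigned from the labels. Per notes deposited beside the lists, intervals of each replicate were called on that replicate's alignment and pooled intervals on the alignments together, all with 1 control alignment and in ce11. The 501 thresholded intervals were then derived through the irreproducible discovery rate. Which aligner, caller and threshold served is not stated in the files or labels. The signal value deposited by the authors was used for ranking, and their −log10 q-value only as a description. Summits came from the deposited offset.

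Genes and biotypes came from Ensembl release 115 (WBcel235, the same assembly as ce11) and sequence from RefSeq. The members, words and lists were chosen with earlier results of these data known. Genes were named by rule: the 15 highest pooled signals, members with a gene-class, lincRNA or antisense symbol, the 5 largest and 5 smallest replicate ratios, and 3 either side of rank 5000, with their hosts or neighbours. Other genes were named after their values were seen. Shares have exact (Clopper-Pearson) 95% intervals, which cover counting error only, and no p-value was computed because the design has 1 group. Genes were aligned with BLAST+ 2.17.0 (blastn, E-value at most 0.0001), and other steps used Python 3.11.15, numpy 2.4.6, pandas 2.3.3 and scipy 1.17.1. Position and word functions were tested on simulated data.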

Additional observations from a re-analysis of the deposited data

How the results depend on the processing

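The 8 described values were recomputed under 78 alternatives, and 60 stayed within the exact 95% interval of the value (for the count of members, within 1.5 times). The others follow. The 2500 strongest intervals gave 171 members, 58.5% matched in both replicates, 17.0% in the thresholded list and a median G+C of 49.5%. The 10000 strongest gave 615 members, 17.6% and 4.72%. A reach of 100 bp gave 43.7% matched in both and 16.2% thresholded, and one of 500 bp put 51.2% inside protein-coding genes. The thresholded list itself gave 29 members, 96.6% matched in both, 27.6% inside protein-coding genes, 17.2% near a protein-coding start, a median replicate ratio of 1.29 and a G+C of 51.5%. Matching summits within 50 bp gave 19.9% in both replicates. Shares matched or thresholded fall with rank by construction; the cause of the other moves was not tested. Members chosen on a single replicate had a median summit distance of −5 to 17 bp, so the side of the start was not stable. For 6 of the settings listed in advance no value exists, because a single replicate has no match in both or ratio, or the share is fixed by the choice. No paired analysis was possible because the series has 1 group. Unknown depth limits every statement on weak intervals.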
